A study of Mus musculus with 12 samples.

Results

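Mephedrone, a synthetic cathinone stimulant that acts on monoamine transporters, was given with and without ethanol, and the comparison here sets every array from mice given mephedrone against every array from mice not given it. The arrays were chosen by their source label alone: 6 of the 12 arrays of the series name mephedrone, 3 of them mephedrone only (the mephedrone group) and 3 mephedrone together with ethanol (the combination group), and the other 6 are 3 arrays with saline and 3 with ethanol. All came from the anterior striatum of adolescent male Swiss CD-1 mice that had gone through a 10-day conditioned place preference protocol, in which an animal learns to link a compartment with a drug, with the drug given 15 minutes before the animal entered it. The labels give no dose, no transgene and no hour of sampling, and do not say that arrays of a group came from separate animals, so the p-values speak only of the spread among these samples, part or all of which could be technical. Because ethanol was present in 1 mephedrone group and absent in the other, the value reported is the average of both within-ethanol-status differences, mephedrone minus saline and combination minus ethanol, called the average difference below. These 2 differences share no array.

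Some of the genes that passed the test belong to well-known systems, which are described first. The circadian clock is a transcriptional loop: the proteins of Arntl (BMAL1) and Clock bind E-box sequences and switch on their own repressors (Per, Cry, Ciart, Bhlhe and Nr1d genes) together with output factors such as Dbp, and the Nr1d repressors and Ror activators then act on Arntl through ROR elements. The clock runs in the striatum as in most tissues, where Arntl and its repressors peak at different times of day. Thyroid hormone acts in the brain after the deiodinase encoded by Dio2 has converted it to its active form. Rbm3 and Cirbp encode RNA-binding proteins induced by mild cooling.

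Values are log2 and were centred per probe set on the median of the 12 arrays. A positive value thus marks an array above that median, and no gene's absolute level is in the table. Before the results, 2 arrays stood apart: combination replicate 3, with an SD over all probe sets of 0.169, and ethanol replicate 1, with 0.127, against 0.0680 to 0.102 in the other arrays. Choroid plexus markers, which come from the epithelium that secretes cerebrospinal fluid, differed most between arrays. Their mean over 11 measured markers ran from -0.20 to 1.88 in the arrays with mephedrone and from -0.12 to 1.12 in those without it, and was highest in combination replicate 3 (1.88), saline replicate 2 (1.12) and ethanol replicate 1 (0.83). In combination replicate 3 the striatal projection neuron markers had a mean of -0.32, the lowest of the 12. All 10 measured markers of striatal projection neurons lay in the higher of the level ranges that the rounding of the deposited values reveals, as did 1 of the 11 choroid plexus markers, against 46.5% of all probe sets. The part of tissue composition in the results was not tested beyond the values given beside them, and in bulk tissue fewer cells of a type and less RNA per cell cannot be told apart.

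With mephedrone, the clock repressors Ciart, Per3 and Nr1d2 and the output factor Dbp were higher and the clock activator Arntl was lower. Rbm3, Trhr2, Nfu1 and Pex7 were also higher, and Dio2, Cldn5, Trim9, Cacng2 and Mpp3 lower. In limma, 68 of 28853 probe sets passed at a Benjamini-Hochberg adjusted p under 0.05 over all probe sets, 0.236% of those tested, with 36 higher (0.125%) and 32 lower (0.111%). Most changes were small: rises ran from 0.14 to 0.75 (1.10- to 1.69-fold, median 0.23) and falls from -0.16 to -0.63 (median -0.31), and 4 of the 68 passed 1.5-fold. In 59 of the 68, all 6 arrays with mephedrone lay on one side of all 6 without it, which 360 probe sets (1.25%) did in all, 222 of them higher (0.769%) and 138 lower (0.478%). The called probe sets with 1 gene symbol stand for 39 of 19938 genes (0.196%), 29 higher (0.145%) and 10 lower (0.0502%). At an unadjusted p under 0.05 in limma 3869 probe sets (13.4%) lay past the threshold, 2136 higher (7.4%) and 1733 lower (6.01%). The last probe set inside the threshold had an adjusted p of 0.0487 and the first outside it 0.0512.

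Of the clock repressors, 10 were measured and 3 passed as higher (Ciart, Per3 and Nr1d2), with 8 of 10 above 0 and a median of 0.20 against 0.0038 over all genes. Of the 4 measured clock activators 1 passed, Arntl, as lower. Of the 9 measured output factors and kinases 1 passed, Dbp, as higher, with 7 of 9 above 0 and a median of 0.050, which was 0.12 without combination replicate 3; without both arrays that stand apart 2 passed. Over all genes, 53.2% lay above 0. The clock lists were chosen with these results known, so their counts describe the data and do not support them.

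Ciart encodes CHRONO, a repressor that binds BMAL1. Its first probe set read 0.18, 0.41 and 0.48 in the mephedrone arrays, 0.56, 0.52 and 0.67 in the combination arrays, -0.20, -0.29 and -0.42 in the saline arrays and -0.39, -0.21 and -0.18 in the ethanol arrays. All 6 arrays with mephedrone were above 0 and all 6 without it below, and the 3 combination arrays were the highest of the 12. Group means were 0.36 ± 0.15, 0.58 ± 0.078, -0.30 ± 0.11 and -0.26 ± 0.11 in that order (SD, n = 3 each). The difference was 0.66 without ethanol and 0.84 with it, an average of 0.75 (SE 0.060, 95% interval 0.62 to 0.88, limma adjusted p = 0.00188). This was the smallest adjusted p of the table. A second Ciart probe set differed by 0.57 and 0.90; whether its probes also read another transcript was not tested.

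Per3, a period gene whose protein acts with the Cry repressors, read 0.19, 0.18 and 0.11 in the mephedrone arrays, 0.10, 0.061 and 0.080 in the combination arrays, -0.17, -0.061 and -0.31 in the saline arrays and -0.25, -0.29 and -0.10 in the ethanol arrays. The lowest array with mephedrone (0.061) stood above the highest without it (-0.061). The difference was 0.34 without ethanol and 0.29 with it. Nr1d2 encodes REV-ERB beta, a repressor of Arntl. It read 0.12, 0.075 and 0.049 in the mephedrone arrays, 0.025, 0.092 and 0.20 in the combination arrays, -0.12, -0.13 and -0.25 in the saline arrays and -0.025, -0.13 and -0.13 in the ethanol arrays. The groups with and without mephedrone did not overlap, though the nearest arrays were 0.025 and -0.025, and the average difference was 0.22 (SE 0.038, adjusted p = 0.0461).

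The other clock repressors did not pass. Bhlhe41, a repressor that competes for E-boxes, had an average difference of 0.36 (SE 0.072, adjusted p = 0.0735), and its relative Bhlhe40 had 0.26 (SE 0.072, adjusted p = 0.146). Nr1d1, which encodes REV-ERB alpha, had 0.18 (SE 0.045, adjusted p = 0.119). All 3 values were above 0 in both within-ethanol-status differences. The remaining period and cryptochrome genes were nearer to 0, at 0.11 for Per2, 0.050 for Cry2, -0.0097 for Per1 and -0.031 for Cry1. Per1 and Per2, which are also induced by neuronal activity, differed in sign or size between the differences, with 0.089 without and -0.11 with ethanol for Per1 and 0.21 and 0.013 for Per2.

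Arntl, the clock activator, read -0.12, -0.084 and -0.28 in the mephedrone arrays, -0.23, -0.23 and -0.33 in the combination arrays, 0.35, 0.084 and 0.14 in the saline arrays and 0.25, 0.32 and 0.34 in the ethanol arrays. Every array with mephedrone was below 0 and every array without it above, with -0.084 and 0.084 the nearest pair. The fall was -0.35 without ethanol and -0.57 with it, on average -0.46 (SE 0.050, 95% interval -0.57 to -0.35, limma adjusted p = 0.0119). Clock, which encodes the partner of BMAL1, had an average difference of -0.053, and the Ror genes, activators of Arntl, had -0.037 for Rora and 0.027 for Rorb. None of these 3 passed.

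Dbp encodes an activator that binds D-box sequences and is a direct target of the clock activators. It read 0.11, 0.089 and 0.14 in the mephedrone arrays, 0.22, 0.15 and 0.093 in the combination arrays, -0.20, -0.089 and -0.17 in the saline arrays and -0.36, -0.11 and -0.12 in the ethanol arrays. The arrays with mephedrone lay between 0.089 and 0.22 and those without it between -0.36 and -0.089, with no overlap. The difference was 0.26 without and 0.35 with ethanol (average adjusted p = 0.0290). Its relatives Hlf and Tef had average differences of 0.13 (SE 0.030, adjusted p = 0.0962) and 0.14 (SE 0.039, adjusted p = 0.145) and did not pass, nor did Usp2, a deubiquitinase under clock control, at 0.19 (SE 0.048, adjusted p = 0.118). Hlf arrays with and without mephedrone did not overlap. The values of the others were -0.050 for Nfil3, a D-box repressor, 0.050 and -0.013 for the kinases Csnk1e and Csnk1d, 0.047 for Fbxl21 and 0.025 for Timeless.

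**Figure D1:**
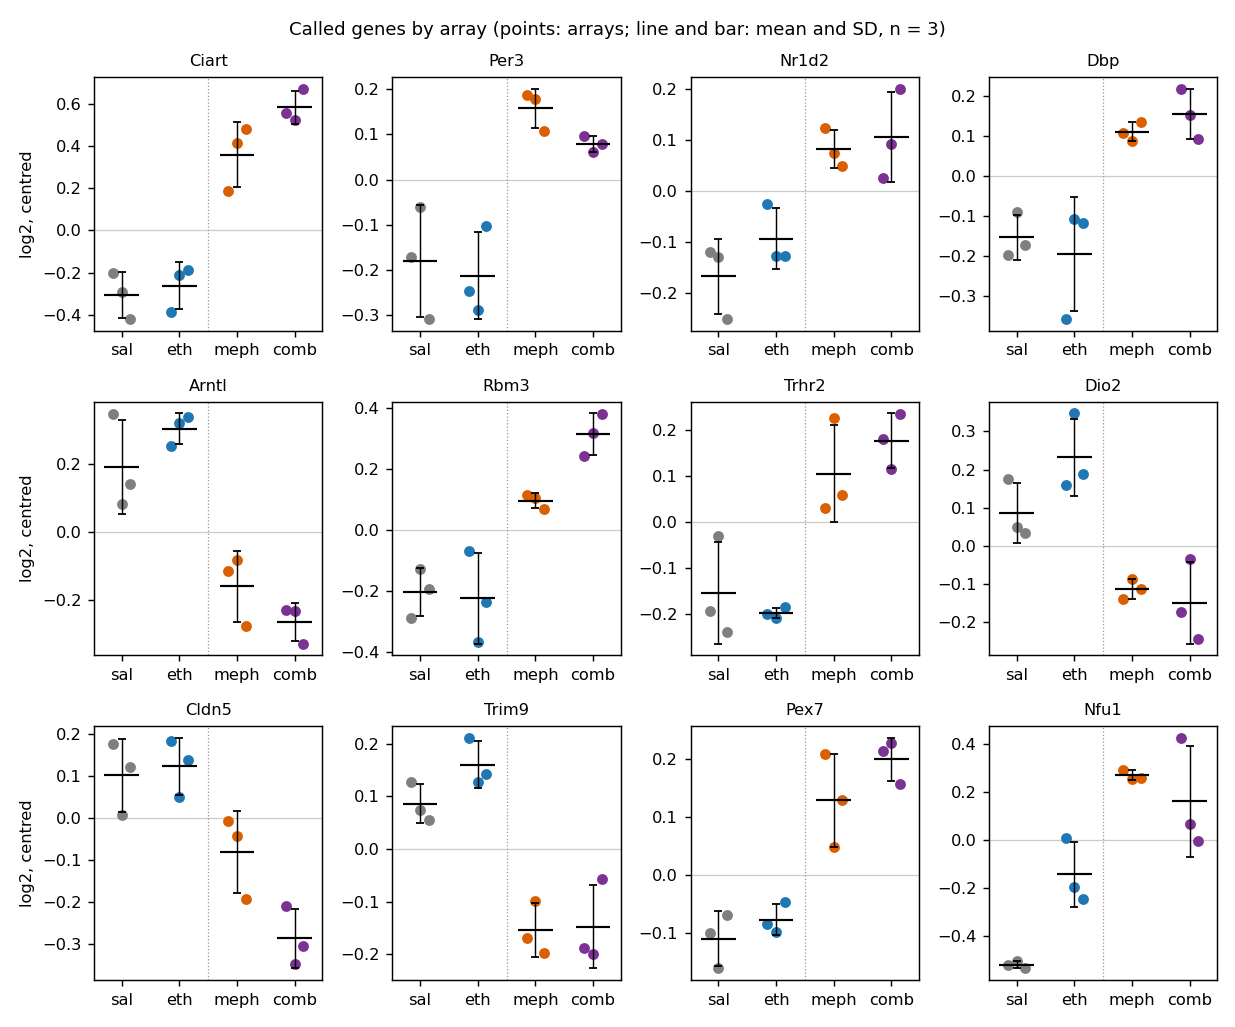
Log2 values, centred on the median of 12 arrays, of 12 called genes in the saline (sal), ethanol (eth), mephedrone (meph) and combination (comb) groups; points are arrays, lines and bars the mean and SD of 3 arrays, and each panel has its own vertical scale. Ciart, Per3, Nr1d2, Dbp, Rbm3, Trhr2 and Pex7 lie higher and Arntl, Dio2, Cldn5 and Trim9 lower in both mephedrone groups without overlap, while Nfu1 overlaps because ethanol replicate 1 reached 0.0070 and combination replicate 3 -0.0070.

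Promoter windows are printed for 3 of the 5 called clock genes, as each holds a motif of a kind known from the clock loop, and for Dio2, which holds a motif outside that loop. The windows of the other called clock genes, Dbp and Nr1d2, the windows of Clock and the first of Arntl held none of the motifs searched. They are RefSeq windows of assembly GRCm38.p6 from 250 bases before to 50 after an annotated start, 5′ to 3′ on the gene's strand, with the motif in capitals. Motifs were searched on both strands, and no capital stretch overlaps another. Ciart (chr3:95882179-95882478, minus strand) holds 3 copies of the E-box CACGTG, at positions -116, -58 and -44 from the start. Per3 (chr4:151044616-151044915, minus strand) holds 2 copies of the D-box TTATGTAA, at -205 and -158. The second of 2 windows of Arntl (chr7:113207261-113207560, plus strand) holds the ROR element core TAGGTCA at 31 after the start. Dio2 (chr12:90738989-90739288, minus strand) holds the cAMP response element TGACGTCA at -95.
Ciart: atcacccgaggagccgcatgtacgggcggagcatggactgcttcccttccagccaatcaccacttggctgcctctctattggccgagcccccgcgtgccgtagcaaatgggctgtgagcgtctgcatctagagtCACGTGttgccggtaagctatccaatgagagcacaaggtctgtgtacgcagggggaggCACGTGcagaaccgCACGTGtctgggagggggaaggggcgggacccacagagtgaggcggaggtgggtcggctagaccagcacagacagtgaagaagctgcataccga
Per3: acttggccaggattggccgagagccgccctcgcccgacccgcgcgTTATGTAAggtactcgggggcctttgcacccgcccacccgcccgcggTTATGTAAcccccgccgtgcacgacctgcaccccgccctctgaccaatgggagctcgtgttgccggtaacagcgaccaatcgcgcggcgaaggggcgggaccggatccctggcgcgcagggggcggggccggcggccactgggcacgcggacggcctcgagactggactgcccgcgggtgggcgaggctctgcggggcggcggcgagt
Arntl: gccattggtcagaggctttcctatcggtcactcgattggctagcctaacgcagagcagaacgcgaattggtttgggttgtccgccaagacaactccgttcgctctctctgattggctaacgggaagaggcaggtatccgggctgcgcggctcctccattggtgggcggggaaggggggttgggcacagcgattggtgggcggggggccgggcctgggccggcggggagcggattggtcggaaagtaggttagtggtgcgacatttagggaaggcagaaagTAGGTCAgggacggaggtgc
Dio2: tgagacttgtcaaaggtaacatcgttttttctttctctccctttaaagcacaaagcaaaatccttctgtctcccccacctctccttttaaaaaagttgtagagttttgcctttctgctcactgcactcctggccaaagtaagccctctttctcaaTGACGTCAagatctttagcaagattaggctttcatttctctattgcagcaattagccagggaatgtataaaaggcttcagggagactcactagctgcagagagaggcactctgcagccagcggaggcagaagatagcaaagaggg

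These motifs are also found without any such change in expression. CACGTG was in 7.15% of 32851 promoter windows and in a window of 8.09% of genes, and TTATGTAA in 0.938%, TAGGTCA in 2.61% and TGACGTCA in 1.79% of windows. Of the 38 called genes with a name, 30 had a window. CACGTG was in a window of 6 of the 23 called higher (Ciart, Cmc1, Slc37a3, Tmem19, Elovl4 and Armt1), 1 of the 7 called lower (Zfp365) and 5 of the 21 clock-list genes with a window. A match is a description of the letters and not a shown binding site.

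Rbm3 was higher with mephedrone on all 3 of its probe sets, which read alike in every array and may not be independent. The one with the smallest p read 0.12, 0.10 and 0.070 in the mephedrone arrays, 0.24, 0.32 and 0.38 in the combination arrays, -0.29, -0.13 and -0.19 in the saline arrays and -0.070, -0.37 and -0.24 in the ethanol arrays. The combination arrays were the highest of the 12, the mephedrone arrays lay between them and the rest, and the groups with and without mephedrone did not overlap. The difference was 0.30 without ethanol and 0.54 with it, on average 0.42 (SE 0.049, limma adjusted p = 0.0127). The interaction, which is the second difference minus the first, had an unadjusted p of 0.0311 in limma and an adjusted p of 1.00. Cirbp, the other cold-inducible RNA-binding protein, read 0.058, 0.0066 and 0.00091 in the mephedrone arrays, 0.25, 0.14 and 0.11 in the combination arrays, -0.30, -0.00091 and -0.080 in the saline arrays and -0.085, -0.30 and -0.25 in the ethanol arrays. Its 6 arrays with mephedrone were all above its 6 without, but the average difference of 0.27 did not pass (adjusted p = 0.0757). Of the 5 genes of the cold-inducible list 1 passed as higher and 4 lay above 0. Body temperature is not in the labels, and the mice were not described as cooled.

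Dio2, the enzyme that activates thyroid hormone, was lower with mephedrone. It read -0.14, -0.085 and -0.11 in the mephedrone arrays, -0.17, -0.033 and -0.24 in the combination arrays, 0.18, 0.049 and 0.033 in the saline arrays and 0.16, 0.35 and 0.19 in the ethanol arrays. All 6 arrays with mephedrone were below 0 and all 6 without above it, and the average difference was -0.29 (SE 0.045, adjusted p = 0.0371). Trhr2, a receptor for thyrotropin-releasing hormone, was higher, reading 0.031, 0.23 and 0.058 in the mephedrone arrays, 0.18, 0.12 and 0.23 in the combination arrays, -0.19, -0.031 and -0.24 in the saline arrays and -0.20, -0.21 and -0.19 in the ethanol arrays. No array with mephedrone fell below any array without it, and the difference was 0.26 without and 0.37 with ethanol. The other genes of thyroid hormone activation, transport and reception did not pass, which leaves 1 higher and 1 lower of 12 measured, with 6 above and 6 below 0. Over the list, average differences ran from -0.29 to 0.42. Thrb, a thyroid hormone receptor, had -0.0038 without and -0.33 with ethanol.

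Of the genes called higher, Nfu1, Sdhaf4, Coq3, Sucla2, Cmc1 and Dld encode mitochondrial proteins. Nfu1, which delivers iron-sulphur clusters to target proteins, had the second largest rise, and read 0.29, 0.25 and 0.26 in the mephedrone arrays, 0.42, 0.064 and -0.0070 in the combination arrays, -0.52, -0.51 and -0.54 in the saline arrays and 0.0070, -0.19 and -0.25 in the ethanol arrays. The 3 saline arrays were the lowest of the 12, and the ethanol and combination arrays overlapped. The difference was 0.79 without and 0.31 with ethanol, and the interaction had an unadjusted p of 0.00456, the smallest of the called probe sets, which did not pass after adjustment. The other Nfu1 probe set had an average difference of 0.14 and did not pass. Sdhaf4, an assembly factor of succinate dehydrogenase, had a lowest, median and highest value of 0.0099, 0.12 and 0.30 with mephedrone and -0.41, -0.20 and -0.0099 without it. Its average difference was 0.35 (SE 0.060, adjusted p = 0.0487), while its other probe set had 0.12 and did not pass.

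Coq3, a methyltransferase of ubiquinone synthesis, had a lowest, median and highest value of 0.020, 0.092 and 0.17 with mephedrone and -0.32, -0.15 and -0.020 without it. Sucla2, a subunit of the citric acid cycle enzyme succinyl-CoA ligase, had 0.010, 0.089 and 0.16 with mephedrone and -0.27, -0.15 and -0.010 without it. Neither gene's arrays overlapped. Cmc1, a cytochrome c oxidase assembly factor, had an average difference of 0.23 (SE 0.030, adjusted p = 0.0139), with 0.24 without and 0.22 with ethanol. Dld, a subunit shared by several mitochondrial dehydrogenase complexes, rose by 0.21 (adjusted p = 0.0393), with overlap because ethanol replicate 1 read 0.0055 and mephedrone replicate 2 -0.0055. Of 15 measured iron-sulphur cluster and respiratory assembly factors 2 passed as higher and 12 lay above 0 (80%, against 53.2% of all genes). Their median was 0.032, with 0.051 without ethanol and -0.0019 with it. Of 9 genes of ubiquinone synthesis 1 passed as higher, while Coq4 had -0.13 and Pdss2 -0.086 in the other direction. At an unadjusted p under 0.05 in limma lay 6 of these 9 (66.7%, against 13.1% of all genes), from -0.13 to 0.25 and in both directions. The list median was 0.047, running from 0.030 without saline replicate 2 to 0.075 without saline replicate 1. Both lists were chosen with earlier results of these data known, so their counts describe the data and do not support them.

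Other rises were spread over unrelated functions. Pex7, the receptor that brings proteins with a type of targeting signal into peroxisomes, had a lowest, median and highest value of 0.047, 0.18 and 0.23 with mephedrone and -0.16, -0.093 and -0.047 without it. Its arrays did not overlap, and the difference was 0.24 without and 0.28 with ethanol (average adjusted p = 0.0136). It was the 1 of 11 measured peroxisome biogenesis genes past the test. Gpr83, a G protein-coupled receptor of neurons, had 0.067, 0.075 and 0.12 with mephedrone and -0.25, -0.15 and -0.067 without it, and Gpcpd1, a phosphodiesterase of phospholipid breakdown, had 0.057, 0.10 and 0.18 with mephedrone and -0.23, -0.13 and -0.057 without it. Both were without overlap, and their average differences were 0.24 and 0.23.

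Bcap29, a membrane protein of the endoplasmic reticulum, rose by 0.25 (SE 0.036, adjusted p = 0.0262), Hhipl1 by 0.27 (adjusted p = 0.0487) and Tmbim4, a Golgi membrane protein, by 0.25 (adjusted p = 0.0455). The arrays of Tmbim4 overlapped and those of the other 2 did not. Dnajb4, a co-chaperone of heat shock proteins, rose by 0.21 and Ptgr2, a prostaglandin reductase, by 0.19. The 9 further genes called higher rose by 0.14 to 0.19. All 29 named genes called higher were above 0 in both within-ethanol-status differences.

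Among the falls, Cldn5 encodes the tight junction protein of brain endothelial cells. It read -0.0069, -0.043 and -0.19 in the mephedrone arrays, -0.21, -0.35 and -0.30 in the combination arrays, 0.18, 0.0069 and 0.12 in the saline arrays and 0.18, 0.050 and 0.14 in the ethanol arrays. The combination arrays were the lowest of the 12, and the nearest arrays across the comparison were -0.0069 with and 0.0069 without mephedrone. The difference was -0.18 without and -0.41 with ethanol, on average -0.30 (SE 0.044, adjusted p = 0.0292). Of 12 measured endothelial markers it was the 1 that passed, and 8 lay below 0 (66.7%, against 46.8% of all genes). At an unadjusted p under 0.05 in limma lay 5 of the 12 (41.7%, against 13.1% of all genes). The list median was -0.061, but its sign differed by ethanol status, with 0.032 without ethanol and -0.12 with it. The endothelial marker means of the arrays ran from -0.073 to 0.053 with mephedrone and from -0.029 to 0.15 without, with ethanol replicate 1 the highest, and their part in the Cldn5 value was not tested.

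Of the genes called lower, Trim9, Cacng2 and Mpp3 encode proteins of synapses and nerve terminals. Trim9, a ubiquitin ligase of nerve terminals and axons, read -0.17, -0.10 and -0.20 in the mephedrone arrays, -0.19, -0.20 and -0.056 in the combination arrays, 0.13, 0.075 and 0.056 in the saline arrays and 0.21, 0.13 and 0.14 in the ethanol arrays. Its arrays with mephedrone were all below 0 and those without all above, and the average difference was -0.27 (SE 0.033, adjusted p = 0.0127). Cacng2, which encodes stargazin, an auxiliary subunit of AMPA receptors, had a lowest, median and highest value of -0.19, -0.12 and -0.0046 with mephedrone and 0.0046, 0.17 and 0.22 without it. Its average difference was -0.25, with combination replicate 3 the array nearest to those without mephedrone, and its second probe set had -0.15 and did not pass. Its relatives Cacng3 and Cacng4 had -0.22 and -0.23 and did not pass either. Of the 13 measured AMPA receptor and auxiliary subunit genes, 7 lay above 0, up to 0.099. Mpp3, a scaffold protein of the membrane-associated guanylate kinase family, read -0.080, -0.088 and -0.10 in the mephedrone arrays, -0.10, -0.068 and -0.00048 in the combination arrays, 0.018, 0.00048 and 0.032 in the saline arrays and 0.16, 0.20 and 0.27 in the ethanol arrays. Ethanol arrays were the highest and the combination and mephedrone arrays lay close together, so the difference was -0.11 without and -0.27 with ethanol.

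The lists that hold these genes had 1 member each past the test, as lower: 1 of 13 AMPA receptor genes, 1 of 13 synaptic scaffold genes and 1 of 15 synaptic vesicle release genes, with medians of 0.0018, -0.032 and 0.021. Without combination replicate 3 the vesicle release median was -0.022, with the sign turned, and without saline replicate 1 the AMPA receptor median was -0.019. Dhrs3, a reductase that returns retinaldehyde to retinol, fell by 0.19 (adjusted p = 0.0455), the 1 of 12 retinoid metabolism genes past the test. Fam135b fell by 0.25 on the probe set that passed, and its other 4 probe sets had values from -0.28 to -0.20. Zfp365, a zinc finger gene, fell by 0.16 (adjusted p = 0.0487).

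Many falls carried no single gene name. Of the 32 probe sets called lower, 19 had no single symbol. Of these, 7 were not listed in the annotation, of 5443 such probe sets (0.129%). That share was near the 0.111% called lower over all probe sets, and 4 other unlisted probe sets (0.0735%) were called higher. The other 12 carried several symbols, of 1621 such probe sets (0.74%), with 0 of that kind called higher. The 12 fell into 4 families that share symbols, and every probe set sharing a symbol with one of them had a value below 0, namely 7 of 7, 5 of 5, 18 of 18 and 9 of 9. These counts include the 12 themselves, 5, 2, 1 and 4 in that order, which were below 0 by choice. Over all probe sets 50.3% lay above 0. Probes of such families match near-identical copies, so these calls are not independent of each other. The transcript A530040E14Rik, singled out after its values were seen, had 4 of its 5 probe sets called, at -0.37 to -0.38. One of them read -0.095, -0.19 and -0.19 in the mephedrone arrays, -0.21, -0.072 and -0.16 in the combination arrays, 0.26, 0.26 and 0.33 in the saline arrays and 0.29, 0.072 and 0.14 in the ethanol arrays. The saline arrays and ethanol replicate 1 were the highest, no array with mephedrone reached those without it, and the fifth probe set had -0.11. The largest falls were those of unlisted probe sets 10550193 and 10550208, at -0.63 and -0.62.

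Each ethanol status gave its own mephedrone difference. All 68 called probe sets had the same sign in both differences, which the average favours by construction. The choice by a single difference does not: of the 100 probe sets with the smallest p in mephedrone minus saline, 93 had the same sign in combination minus ethanol (95% exact binomial interval 86.1% to 97.1%), where 60.4% of all probe sets did. The reverse choice gave 88 of 100 (80.0% to 93.6%). Probe sets are not independent of each other, so the intervals cover counting only. The ethanol differences, ethanol minus saline and combination minus mephedrone, which also share no array, gave 52 and 58 of 100 against 54.4% of all probe sets. Across all probe sets the mephedrone differences correlated at r = 0.386 and the ethanol differences at r = 0.118, both descriptions across probe sets.

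The values of the chosen probe sets were smaller where they had not been chosen. The median size was 0.24 in mephedrone minus saline and 0.13 in the other difference for the first choice, and 0.28 and 0.12 for the second. Taken alone, mephedrone minus saline gave 0 called probe sets in limma (2154, 7.47%, at an unadjusted p under 0.05) and combination minus ethanol 10 (0.0347%; 2939, 10.2%, at an unadjusted p under 0.05), among them Ciart, Arntl, Rbm3, Mpp3, C4b and Lsm4. The ethanol average, from the same 12 arrays, gave 0 (1516, 5.25%, at an unadjusted p under 0.05).

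**Figure D2:**
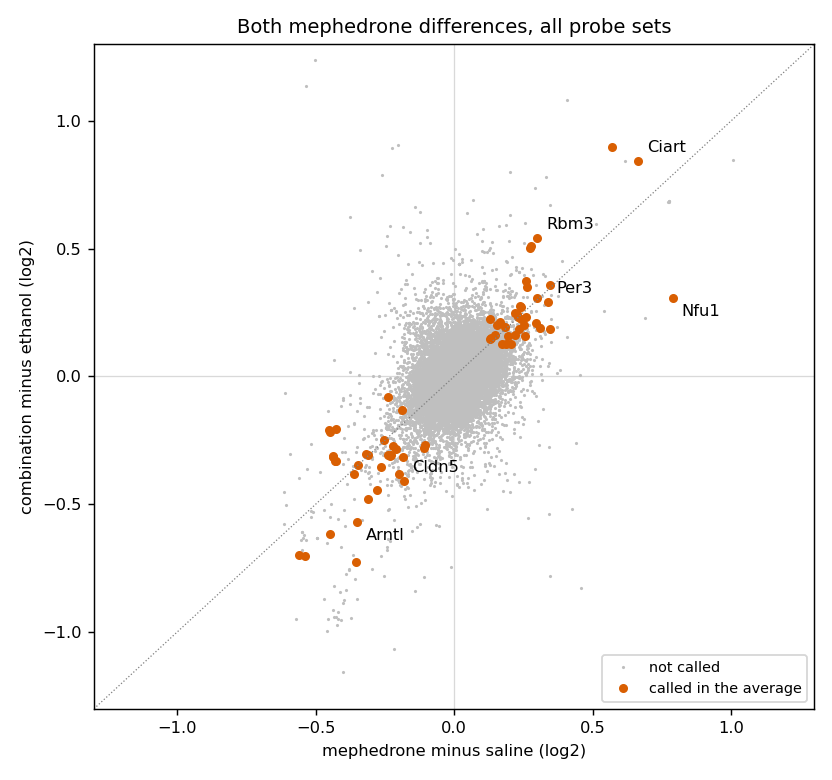
Difference with ethanol (combination minus ethanol, vertical) against difference without it (mephedrone minus saline, horizontal) for all probe sets, both in log2; grey points were not called and orange points are the 68 called in the average, with 1 probe set outside the axes. Called points lie in the upper right and lower left, with Ciart at 0.66 and 0.84, Arntl at -0.35 and -0.57, and Nfu1 to the right of the dotted line of equal differences.

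No probe set passed for the interaction in limma (991, 3.43%, at an unadjusted p under 0.05; smallest adjusted p 0.786), so the mephedrone difference was not shown to depend on ethanol for any gene. The 10 genes with the smallest p in each difference were compared across it. Bloc1s5, Polr3g and Ngly1 had 0.28, 0.26 and 0.21 without ethanol and 0.024, 0.0070 and -0.0028 with it. C4b, a complement component, and Lsm4, a component of RNA processing complexes, had -0.042 and -0.051 without ethanol and 0.36 and 0.24 with it. The endothelial receptor gene Tek had 0.087 and -0.22, and Dusp6, a phosphatase of the ERK pathway, -0.0085 and -0.35. Rbm8a had 0.21 and 0.079. The other genes of both sets, Nfu1, Ciart, Bcap29, Cmc1, Dnajb4 and Per3 for the first and Ciart, Arntl, Rbm3, Mpp3, Trim9 and Cldn5 for the second, passed in the average.

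Immediate early transcription factors, which neurons switch on within minutes of activity, had 0 of 18 members past the test in limma, although 13 of 18 (72.2%) had an unadjusted p under 0.05, against 13.1% of all genes. In all, 13 (72.2%, against 46.8% of all genes) lay below 0, with a median of -0.18 (-0.094 without ethanol and -0.32 with it). Egr3 and Nr4a1 had the smallest p, at -0.27 (SE 0.050, adjusted p = 0.0605) and -0.78 (SE 0.160, adjusted p = 0.0757). Nr4a1 read -0.30, -0.24 and 0.16 in the mephedrone arrays, -0.15, -0.11 and -0.66 in the combination arrays, 0.83, -0.071 and 0.071 in the saline arrays and 0.67, 0.88 and 1.00 in the ethanol arrays. Saline replicate 1 and the ethanol arrays were high, while saline replicates 2 and 3 lay among the arrays with mephedrone. Nr4a2 had the opposite sign at 0.74 (SE 0.275), with 1.63 in combination replicate 3. Averaged over the list, the mephedrone arrays had -0.10, 0.0027 and 0.038, the combination arrays -0.076, -0.041 and -0.11, the saline arrays 0.25, -0.083 and -0.0020, and the ethanol arrays 0.27, 0.20 and 0.20. The list thus separated the ethanol arrays from the combination arrays but not saline from mephedrone.

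ERK feedback genes are the phosphatases and inhibitors that the ERK pathway induces to limit itself. They had 11 of 11 values below 0, against 46.8% of all genes, and 0 past the test in limma. At an unadjusted p under 0.05 in limma lay 7 of them (63.6%), against 13.1% of all genes. The median was -0.10, with -0.020 without and -0.16 with ethanol. Dusp6 and Dusp1 had the smallest p, at -0.18 and -0.31. Activity-induced effector genes had 6 above and 7 below 0 of 13, with Vgf at -0.39 (adjusted p = 0.0731) and Arc at -0.53 (adjusted p = 0.104). None of the 13 passed in limma (5, 38.5%, at an unadjusted p under 0.05, against 13.1% of all genes).

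Dopamine receptors were examined because the title of the study names the D3 receptor. All 5 had average differences below 0, as did 46.8% of all genes. None passed in limma, with 0 of 5 at an unadjusted p under 0.05. Drd3 read 0.052, -0.31 and 0.25 in the mephedrone arrays, -0.00062, 0.00062 and -1.05 in the combination arrays, -0.054, -0.39 and -0.59 in the saline arrays and 0.34, 0.092 and 0.14 in the ethanol arrays. Combination replicate 3 was the lowest array and the others overlapped, and the difference was 0.34 without and -0.54 with ethanol, on average -0.10 (SE 0.180, adjusted p = 0.882). Without both arrays that stand apart the Drd3 average was 0.11, with the sign turned. With all arrays the values were -0.031 for Drd1, -0.12 for Drd2, -0.011 for Drd4 and -0.058 for Drd5. Over the omissions of 1 array the highest values were 0.045 for Drd1, 0.077 for Drd3 and 0.0094 for Drd4, while Drd2 and Drd5 stayed below 0. The list median was -0.058 with all arrays and -0.014 without both arrays that stand apart.

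Lists of other cell types and states had few or no members past the test. Over all genes, 53.2% lay above 0, 46.8% below 0 and 13.1% at an unadjusted p under 0.05 in limma. Choroid plexus markers had 11 of 11 average differences above 0 and a median of 0.18 with 0 passed, and the median was -0.23 without and 0.51 with ethanol. That median rested on 1 array: it was -0.047 without combination replicate 3 and 0.059 without both arrays that stand apart. Markers of cortical excitatory neurons had 8 of 9 above 0 and a median of 0.12, with 0 passed and 0 of 9 at an unadjusted p under 0.05 in limma. Their array means ran from -0.093 to 0.67 with mephedrone, highest in combination replicate 3, and from -0.38 to 0.29 without it, and the median was 0.028 without that array. Markers of microglia, the immune cells of the brain, had 10 of 11 below 0 and a median of -0.068, again with 0 passed (3 at an unadjusted p under 0.05 in limma). Siglech (-0.14) and C1qa (-0.11) had the smallest p among them. Striatal projection neuron markers had 9 of 10 below 0, with a median of -0.053, and genes of sterol synthesis had 11 of 11 above 0, with a median of 0.081, where combination replicate 3 had the highest list mean of the 12 arrays, 0.31. Without that array the medians were -0.0037 for projection neurons and 0.025 for sterol synthesis, and the microglia median was -0.039 without combination replicate 2. With the choroid plexus mean of each array as a covariate, 56 probe sets were called, 51 of them shared with the 68, and the average differences were 0.76 for Ciart, -0.45 for Arntl and 0.40 for Rbm3.

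**Figure D3:**
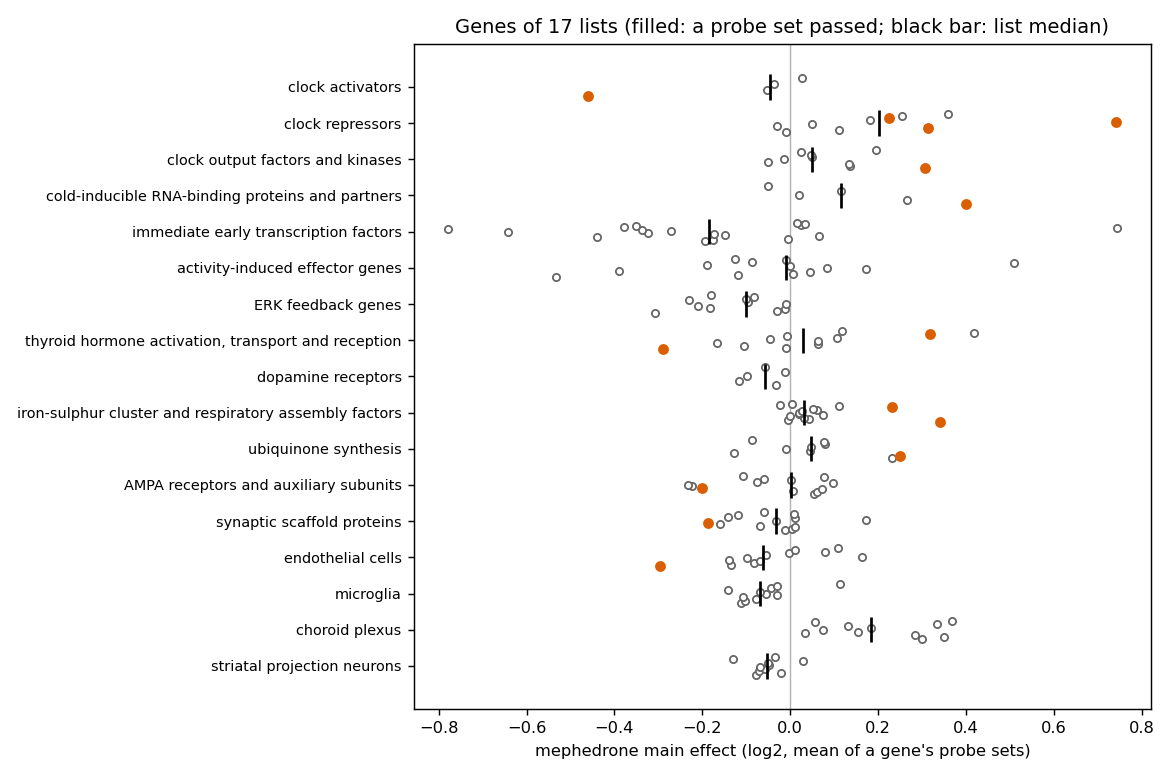
Average mephedrone difference (log2, horizontal; mean of a gene's probe sets) of each measured gene in 17 of the gene lists, with filled points for genes with a probe set past the test and black bars for list medians. Clock repressors (median 0.20) lie to the right and Arntl far to the left among the activators, while immediate early transcription factors (median -0.18) and ERK feedback genes (median -0.10) lie to the left with 0 genes past the test.

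The count of calls moved with single arrays more than the values did. Against 68 with all arrays, it rose to 114 when ethanol replicate 1 was left out. It dropped to 10, 18 and 19 on omitting mephedrone replicates 1, 2 and 3 in turn, to 22 and 14 on omitting ethanol replicates 2 and 3, to 26 on omitting saline replicate 2 and to 18 on omitting combination replicate 1. Over 22 other settings, 12 of them the omission of 1 array, the average difference of a called gene stayed between 0.848 and 1.2 times its value and none of 45 called probe sets with 1 symbol changed sign. Those of Ciart (both), Arntl, Pex7, the first of Rbm3 and 4 of A530040E14Rik kept their calls in all 22. Trim9, Nfu1, Cmc1 and the other 2 of Rbm3 kept theirs in 10 or 11 of the 12 omissions. Trim9 lost its call without mephedrone replicate 1, Nfu1 without that array or ethanol replicate 3, and Cmc1 without mephedrone replicate 1 or 2.

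Calls of the other genes were less settled. Per3 and Trhr2 kept theirs in 7 of 12 omissions, Bcap29, Gpcpd1 and Gpr83 in 6 and Mpp3 in 5. The remaining 25 probe sets, with Dbp, Nr1d2, Dio2, Cldn5 and Coq3 among them, kept theirs in 0 to 3. Nr1d2 passed in 1 omission, without ethanol replicate 1, with values of 0.20 to 0.25 over the 12. Dbp had 0.27 to 0.33, Dio2 -0.32 to -0.26 and Cldn5 -0.32 to -0.27. The direction of these genes was the same in every omission while the adjusted p crossed the threshold.

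**Figure D4:**
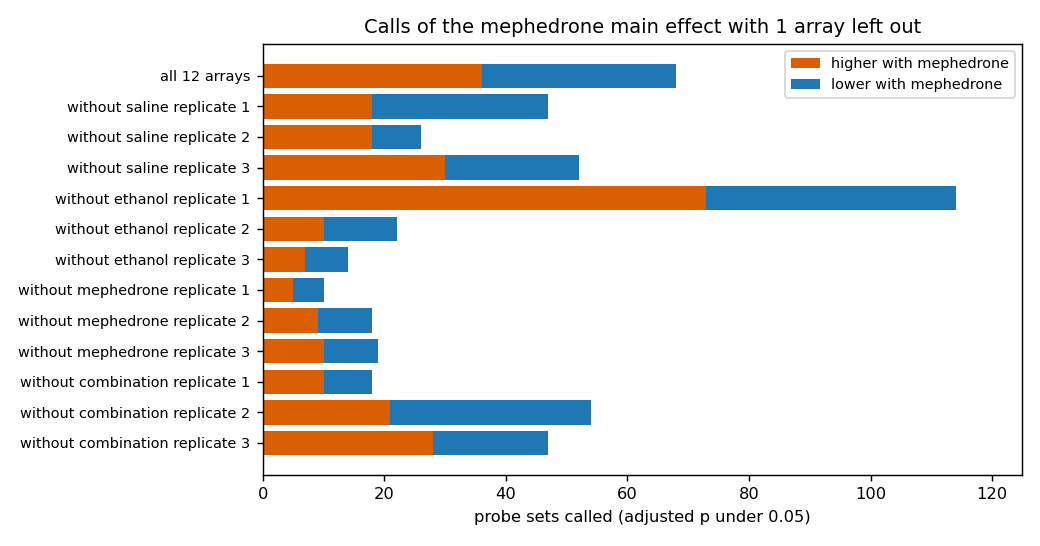
Number of probe sets called for the average mephedrone difference (horizontal, limma adjusted p under 0.05) with all 12 arrays and with each array left out, higher in orange and lower in blue. The count runs from 10 without mephedrone replicate 1 to 114 without ethanol replicate 1, against 68 with all arrays.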

How the data were processed

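The 12 arrays were Affymetrix Mouse Gene ST arrays, 3 per group. Per the submitters' processing notes the authors used RMA with mm8 and GeneSpring GX 7.3.1, and deposited log2 values of 28853 probe sets, centred on each probe set's median over the 12 arrays (the largest absolute median was 7.02e-07, with 0 missing values); which step did the centring is not given in the sources used here. Levels and signal over background are therefore unknown, and the number of arrays limits the precision. Symbols came from the platform annotation: 21789 probe sets had 1, 1621 several and 5443 none listed.

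The 4 group means were estimated from all arrays together in limma 3.58.1 under R 4.3.3 (8 residual and 3.11 prior degrees of freedom, two-sided, Benjamini-Hochberg over all probe sets, threshold 0.05). No filter was applied and no array was dropped from the main result. The fit was tested on simulated data. Named genes were called genes with 1 symbol (at most the 20 largest rises and falls; predicted genes were counted only), list members that passed or had the 2 smallest p, all clock genes, the 10 smallest p in each difference, and dopamine receptors. Some further genes, among them Thrb, Cirbp, Coq4, Pdss2, Cacng3, Cacng4 and Nr4a2, were named outside these rules with their values known. A gene in a list passed if any of its probe sets did, and its value there was the mean of its probe sets. The members and the 39 gene lists (25 of pathways, 14 of cell type markers) were chosen with earlier results of these data known, so list counts are descriptions only. Alternatives were array weights, other normalisations and fits, a replicate block, a choroid plexus covariate and the omission of arrays. Promoter windows were matched by symbol and are given in RefSeq's GRCm38.p6 coordinates; that build differs from the mm8 of the arrays, and no coordinate of a probe set was used.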

Additional observations from a re-analysis of the deposited data

Results flagged for a closer look

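Groups of 6 arrays, with or without mephedrone, were checked, 152 of genes and 78 of gene list means. In 19 of these 230, 1 array lay far from the other 5 by Dixon's test. Chance does so in about 1 in 20 independent groups. Many of the genes were chosen by their p in these data and all groups share the same 12 arrays, so the 19 cannot be judged against that share. Of these 19, 12 were on combination replicate 3. Among the arrays with mephedrone it had the lowest value for Drd1 (-0.4276), Drd2 (-0.4202) and Tef (-0.06884) and the highest for Mpp3 (-0.00048). Its list means were the lowest for striatal projection neurons (-0.321), dopamine receptors (-0.395), striatal dopamine and cAMP signalling (-0.2501) and opioid peptides and receptors (-0.08886). They were the highest for oligodendrocytes (0.4834), sterol synthesis (0.3131), astrocytes (0.2819) and glucocorticoid-responsive genes (0.2318).

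The other 7 were on 4 arrays. Ethanol replicate 1 was the highest for Nfil3 (0.1302) and the lowest for the striatal dopamine and cAMP list mean (-0.1343) among arrays without mephedrone. Saline replicate 2 was the highest for Trhr2 (-0.03065) and the lowest for Ngly1 (-0.09166), and saline replicate 3 the lowest for Csnk1e (-0.1017). Mephedrone replicate 3 was the lowest for Armt1 (0.009772), one of the called genes, and the highest for the mean of hypothalamic and pituitary hormones (0.356). The cause of these values was not tested.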

How the results depend on the processing

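With all arrays 68 probe sets were called, 36 higher and 32 lower (52.9% higher). The count was 350 with array quality weights (226 higher and 124 lower, 64.6% higher), 147 without both arrays that stand apart (105 and 42) and 121 without the 3 arrays with the highest choroid plexus means (82 and 39), an alternative chosen after seeing the data. It was 45 with quantile normalisation (20 and 25), 37 by an unadjusted p under 0.05 and 1.5-fold (9 and 28), 30 among probe sets with 1 symbol alone (20 and 10) and 23 with 1 value per symbol (17 and 6). With the less variable probe sets left out, by the median split, it was 66 (26 and 40). Leaving out 1 array gave 10 to 114, with 18 and 29 without saline replicate 1 and 21 and 33 without combination replicate 2. Quantile normalisation moved the median of all probe sets by -0.00185. The causes were not tested.

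Mephedrone minus saline gave 0 calls with all arrays, 1 with its own 6 arrays alone and 0 to 9 with 1 array left out (9 without ethanol replicate 1). Combination minus ethanol gave 10, 0 with its own arrays alone and 0 to 17 with 1 left out. The interaction gave 0 in every setting tried. None of the 45 called probe sets with 1 symbol reversed, and the 23 called without a single symbol were not followed over the settings. Replicate numbers are shared by the groups, and the labels do not say whether same-numbered arrays belong together. Deviations of same-numbered arrays correlated at -0.253 to 0.396 (6 of 18 above 0.1). Their median was 0.0065, against 0.00149 for arrays with different numbers, and 4 of 12 arrays correlated best with their own number. These few values cannot show whether the numbers pair the arrays. With the replicate block 20 were called (7 and 13), all among the 68, and combination minus ethanol gave 0.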

Other observations

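Of the 703 pairs among the 38 called genes with a name, 1 lay close together in the RefSeq gene order: Bcap29 and Dld, with 3 protein-coding genes between them. Those genes had average mephedrone differences of 0.0096 (Slc26a3), -0.056 (Cbll1) and 0.011 (Slc26a4), while Dus4l, on the other side of Bcap29, had 0.15 (unadjusted p = 0.0289 in limma). The pair was singled out after its values were seen, and no cause was tested.

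Calls were more frequent among probe sets in the higher level range before centring, with 49 of 13425 (0.365%), than in the lower one, with 19 of 15418 (0.123%). Among genes just outside the threshold, Zdhhc14 had an average difference of -0.25, Fat3 -0.20, Cdkl1 0.26 and Chd7 0.15, with adjusted p from 0.0518 to 0.0570 in limma.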
